A study of Homo sapiens with 4 samples.

Results

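Integrins are the receptors by which cells hold the extracellular matrix, and focal adhesions are the protein assemblies that tie their short cytoplasmic tails to actin. The expression of 40 genes of this machinery was examined in HGC-27 cells, out of 25559 gene symbols counted. The 40 genes were taken by symbol from a list drawn up with earlier results of these data known. They comprised 12 integrin alpha subunits, 5 beta subunits, 2 genes with an integrin symbol that encode no subunit, and 21 intracellular adaptors, kinases and actin linkers. The HGC-27 line derives from a human gastric cancer. The samples were 2 RNA-seq libraries of wild-type control cells and 2 of RUNX3 knock-out (KO) cells, with no treatment named in the labels. The knock-out cells had been made with a Cas9 lentiviral vector carrying a RUNX3 guide, puromycin selection and single-cell cloning. The number of clones, and whether replicates were separate cultures, were not given in the sources used here. Loss of RUNX3 and any other difference between a clone and the control cells therefore cannot be told apart, and p-values measure only the spread between these libraries, which may be technical.

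An integrin is a pair of 1 alpha and 1 beta chain, and the pairing sets the ligand. Subunits alpha 3, 6 and 7 give laminin receptors, alpha 1, 2, 10 and 11 collagen receptors, and alpha 5 and V receptors for fibronectin, vitronectin and other ligands with an RGD motif. Inside the cell, talin and kindlin bind the beta tail and switch the receptor on. Vinculin and alpha-actinin join talin to actin, the ILK, PINCH and parvin complex builds a further link, and FAK, SRC and the CAS proteins carry the signal onward. RUNX3 is a transcription factor of the runt family, which binds a short core element in DNA.

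Between 11731401 and 12110876 reads were counted on genes per library. Replicates of a condition differed by little more than sampling noise, with a chi-square per degree of freedom of 1.22 between the control libraries and 1.18 between the RUNX3 KO libraries, against at least 17.1 across conditions. RUNX3 itself had 351 and 308 counts in control and 225 and 185 in RUNX3 KO cells (log2 fold change -0.70, SE 0.0961, adjusted p = 1.43e-09, edgeR's quasi-likelihood test). Without RUNX3 KO replicate 2 its adjusted p was 0.0649, and with an assumed coefficient of variation of 0.2 it was 0.257. Its mRNA thus remained countable in the knock-out libraries, and a transcript count does not report on the protein. The paper reports a check of the deletion after cloning, by RT-qPCR and by an immunoblot on which RUNX3 protein was absent. Of 7 epithelial markers, KRT19 was at 0 in all 4 libraries, EPCAM had at most 1 count, and the summed level of the list was 10.5 to 11.6 CPM, the count scaled to the size of the library, in control and 16.5 to 17.9 in RUNX3 KO. All 6 fibroblast markers on the list were detected and fell in RUNX3 KO cells, from a summed 1727 to 1792 CPM to 926 to 928. COL1A1 carried most of that sum, at 1245 CPM in control and 683 in RUNX3 KO, and the members fell unequally, from 1973 and 2030 to 1 and 5 counts for COL1A2 and 5.02-fold (PDGFRA) to 1.31-fold (DCN) and 1.33-fold (LUM). None of them was at 0 in every library. MUC1 had 85 to 100 counts in every library and did not pass the test, KRT18 had 0 and 0 against 2 and 14, and KRT8 had 19 and 11 against 72 and 81 (log2 fold change 2.33, adjusted p = 1.9e-13). CDH1 had 15 and 21 counts against 30 and 32 (log2 fold change 0.77, adjusted p = 0.0238), but its adjusted p was 0.238 without control replicate 1, 0.135 without RUNX3 KO replicate 1 and 0.172 without RUNX3 KO replicate 2. Epithelial markers were thus partly absent and partly low, with KRT8 and CDH1 higher in RUNX3 KO cells. The part of these rises and of the fall in fibroblast markers in the adhesion results was not tested. Leukocyte markers summed to at most 3.22 CPM with CD3E and ITGAM at 0, and endothelial markers to at most 0.51 CPM with PECAM1, CDH5 and KDR at 0. In bulk samples such as these, fewer cells of a type and less RNA per cell cannot be told apart.

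Because RUNX3 is a DNA-binding factor, promoter sequence is given for LIMS2, ITGA6 and TNS1, 3 of the 5 genes that changed at least 2-fold (ITGA11 and ITGBL1, with at most 22 counts in any library, are left out), together with the short runs that hold the letters of its core element. RefSeq promoter windows on GRCh38.p14, from 250 bases before to 50 after a start site, were at hand for 31 of the 40 genes, 63 windows in all, and ITGA3, ITGA7, ITGA9, ITGB3, ITGB4, FERMT1, PTK2, PARVA and SRC had no entry. They were searched on both strands for TGTGGT and TGCGGT, which can share no more than an end letter. The upstream stretch shown for LIMS2 is the one of its windows with a match, in capitals. Those shown for ITGA6 and TNS1 hold none, although the other upstream stretch of ITGA6 does, so no contrast between the genes follows from them. Each stretch was taken from a start site at which it shares no sequence with the annotated transcripts of its gene.
LIMS2, chr2:127675531-127675780, minus strand: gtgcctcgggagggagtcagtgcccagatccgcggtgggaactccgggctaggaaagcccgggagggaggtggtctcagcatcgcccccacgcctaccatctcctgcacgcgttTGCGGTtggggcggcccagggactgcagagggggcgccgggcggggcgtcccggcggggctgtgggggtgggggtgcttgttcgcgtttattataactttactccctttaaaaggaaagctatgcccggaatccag
ITGA6, chr2:172427086-172427335, plus strand: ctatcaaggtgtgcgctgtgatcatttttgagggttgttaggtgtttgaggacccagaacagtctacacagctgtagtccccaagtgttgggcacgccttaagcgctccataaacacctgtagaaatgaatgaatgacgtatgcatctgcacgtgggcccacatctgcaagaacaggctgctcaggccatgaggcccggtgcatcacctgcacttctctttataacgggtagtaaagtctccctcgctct
TNS1, chr2:217937546-217937795, minus strand: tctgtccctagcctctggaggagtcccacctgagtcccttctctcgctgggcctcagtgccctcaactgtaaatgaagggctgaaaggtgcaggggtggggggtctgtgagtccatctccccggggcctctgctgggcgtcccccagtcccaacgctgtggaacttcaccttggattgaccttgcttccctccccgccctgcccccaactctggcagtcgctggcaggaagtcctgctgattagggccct

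The adhesion genes that passed the test and had a match in any window were ITGA6, LIMS2 and ACTN4, which rose, and ITGB5 and ACTN1, which fell. Each site is shown with 10 bases on either side, the core letters in capitals, read 5′ to 3′ in the direction of the gene.
ITGA6, chr2:172427339-172427364, plus strand: ctactcggcaACCACAattctgtcca
LIMS2, chr2:127675651-127675676, minus strand: tgcacgcgttTGCGGTtggggcggcc
ACTN4, chr19:38694022-38694047, plus strand: gcctcctctcTGTGGTttggttcaca
ITGB5, chr3:124887827-124887852, minus strand: gaagtcgcttTGCGGTtccacgcgcg
ACTN1, chr14:68977759-68977784, minus strand: ctttggatagTGCGGTtagggctggg
The ITGA6 match is on the strand opposite to the gene and lies at position 13 from its upstream start and at -237 from its downstream start, so that it counts in both windows. The LIMS2 match, at -136, is in 1 of its 4 windows. Among all 63 windows, 11 (17.5%) held either motif, against 19.6% of all 35116 windows of the same length, and 9 of the 31 genes (29%) held it in any window, against 22.9% of all genes. Neither the 5 windows of TNS1 nor those of ITGA11 and ITGBL1 held them, which says only that these letters are not in these windows. ITGA2, PARVB, NEDD9 and TNS3, which did not pass or enter the test, also held a match.

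Of the 40 genes, 36 had enough counts to be tested, and ITGA2, ITGA9, ITGA10 and PARVB did not. In RUNX3 KO cells 12 of the 36 were lower and 9 higher at an adjusted p under 0.05, while 24.4% of all 12967 tested genes were lower and 24.5% higher. The median log2 fold change of the 36 was -0.04, against -0.0021 over all tested genes, and the median of its absolute size was 0.23 against 0.19. Of the 14 integrin subunits tested, 4 were lower and 3 higher with a median of -0.05, and of the 20 adaptors, kinases and actin linkers tested, 6 were lower and 6 higher with a median of 0.01. Of the 21 genes that passed, 14 (66.7%) changed by less than 1.5-fold, beside 73.7% of all genes that passed. ITGA7, ITGA11, ITGBL1 and TNS1 fell at least 1.5-fold, and ITGA3, ITGA6 and LIMS2 rose that far. Among all tested genes 8.24% fell and 4.61% rose by that much. At least 2-fold, 3 fell, 2 rose, and the background was 3.95% and 2.11%. The 3 falls, ITGA11, ITGBL1 and TNS1, had entered the test through the control libraries alone, since the filter asks for 2 libraries above 0.846 CPM and no RUNX3 KO library reached that, so a gene of this kind had to differ. With 10 counts required in every library they were not tested and 0 remained. The spread between libraries was small, a biological coefficient of variation of 1.45%. With an assumed coefficient of variation of 0.2 in edgeR's exact test, ITGA11, ITGBL1, TNS1, ITGA6 and LIMS2 passed and the other 16 did not. With 1 library left out, 5 were lower and 6 higher without RUNX3 KO replicate 1, and 5 were lower and 7 higher without RUNX3 KO replicate 2. These fits leave 1 library in a condition, which is assumed to vary like the other condition. Without a RUNX3 KO library, adjusted p-values rose even where the fold change hardly moved, so a call lost there need not reflect 1 library. The 10 that passed whichever library was left out were ITGA3, ITGA4, ITGA5, ITGA6, ZYX, FERMT2, LIMS2, BCAR1, ACTN1 and, with the limit on its entry just given, TNS1.

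**Figure D1:**
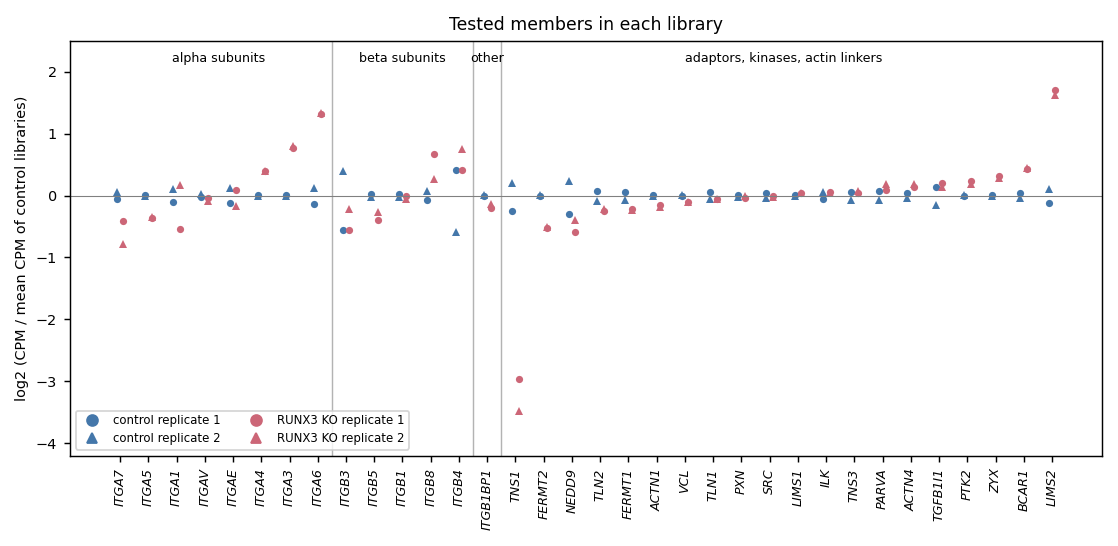
Each column is an adhesion gene, and each point a library, as the log2 of its CPM over the mean CPM of the control libraries (circles replicate 1, triangles replicate 2, blue control, red RUNX3 KO). ITGA11 and ITGBL1, with at most 2 counts per RUNX3 KO library, are left out. LIMS2 and ITGA6 stand above and TNS1 below the band in which most genes lie.

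Among the receptors, the laminin-binding alpha subunits ITGA6 and ITGA3 rose while the third of them, ITGA7, fell. ITGA6 pairs with beta 1 or beta 4 to bind laminins and had 144 and 174 counts in control and 394 and 410 in RUNX3 KO cells. Both RUNX3 KO libraries lay far above both control libraries, and ITGA6 differed by 1.32 on the log2 scale (SE 0.0953, adjusted p = 3.45e-22, edgeR's quasi-likelihood test). The gene lies on chromosome 2 from 173292082 to 173371187 of GRCh37, the build the files use under the name hg19, and the median log2 fold change of its 40 nearest tested genes was -0.08. ITGA3, which pairs with beta 1 on epithelial basement membranes, had 224 and 220 counts in control and 377 and 396 in RUNX3 KO cells. Again the groups did not overlap, and ITGA3 differed by 0.79 on the log2 scale (SE 0.0874, adjusted p = 6.66e-13). A lack of overlap between 2 and 2 libraries, here and below, has an exact two-sided permutation p of only 0.333. Its share over all tested genes was not counted. The 40 neighbours of ITGA3 on chromosome 17 had a median of -0.09, and with the assumed coefficient of variation its adjusted p was 0.144.

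ITGA7, the laminin receptor chain best known from muscle, had 54 and 58 counts in control and 42 and 33 in RUNX3 KO cells. The groups did not overlap but the counts were low, and the log2 fold change of -0.59 (SE 0.215, adjusted p = 0.0176, edgeR's quasi-likelihood test) was near the threshold. Its adjusted p was 0.0996 without control replicate 2, 0.0614 without RUNX3 KO replicate 1 and 0.208 without RUNX3 KO replicate 2. Its 40 neighbours on chromosome 12 had a median of -0.19. With that subtracted its log2 difference was -0.40, and the adjusted p was 0.124. Such p-values, here and below, take the neighbours' median as a fixed number and leave out the spread among the neighbours.

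The fibronectin receptor chain ITGA5 fell and the VCAM1 and fibronectin receptor chain ITGA4 rose, each by less than 1.5-fold. ITGA5 had 1343 and 1333 counts in control and 1038 and 1067 in RUNX3 KO cells (log2 fold change -0.36, SE 0.0452, adjusted p = 7.01e-11, edgeR's quasi-likelihood test). ITGA4 had 1352 and 1338 counts in control and 1765 and 1803 in RUNX3 KO cells (log2 fold change 0.39, SE 0.0404, adjusted p = 2.13e-14). The groups did not overlap for either gene, and the 2 moved in opposite directions. The neighbours of ITGA5 on chromosome 12 had a median log2 fold change of -0.17, and with it subtracted ITGA5 differed by -0.19 (adjusted p = 2.6e-04). ITGAV, which pairs with several beta chains to bind vitronectin and other ligands, had 1380 and 1424 counts in control and 1364 and 1341 in RUNX3 KO cells. The difference of -0.07 on the log2 scale did not pass the test, with a 95% interval of -0.15 to 0.02.

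The collagen-binding alpha subunits were scarce. ITGA11, a collagen I receptor of mesenchymal cells, had 10 and 12 counts in control and 2 and 2 in RUNX3 KO cells. The ratio of control to RUNX3 KO was 5.55 with a 95% counting interval of 1.89 to 22.2, and edgeR's quasi-likelihood test gave an adjusted p of 6.82e-04. It did not pass without RUNX3 KO replicate 1 (log2 fold change -2.41) or replicate 2 (-2.39), beside -2.40 on all 4 libraries. DESeq2 gave an adjusted p of 0.0774, and without control replicate 2 the gene was not tested. Its place among the tested genes rested on the control libraries alone. ITGA1 had 53 and 61 counts in control and 39 and 65 in RUNX3 KO cells, which overlap, and a log2 fold change of -0.15 that did not pass (adjusted p = 0.587). ITGA2 had 6 and 2 counts against 1 and 1, ITGA10 had 7 and 4 against 3 and 5, and the tenascin receptor chain ITGA9 had 1 and 2 against 0 and 1, too few to be tested. ITGAE, which binds E-cadherin when paired with beta 7, had 158 and 187 counts in control and 183 and 156 in RUNX3 KO cells, again overlapping.

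Of the 5 beta subunits only ITGB5 passed the test. ITGB1, the common partner of most alpha chains above, had 4213 and 4092 counts in control and 4131 and 4062 in RUNX3 KO cells. The groups overlapped, with a log2 fold change of -0.03 and a 95% interval of -0.09 to 0.02. ITGB5, which pairs with alpha V to bind vitronectin, had 654 and 636 counts in control and 489 and 547 in RUNX3 KO cells (log2 fold change -0.33, SE 0.0642, adjusted p = 8.59e-06, edgeR's quasi-likelihood test). Both RUNX3 KO libraries were below both control libraries, and without RUNX3 KO replicate 1 the adjusted p was 0.0545. ITGB8, a partner of alpha V that binds latent TGF-beta, had 37 and 41 counts against 62 and 48, and its adjusted p was 0.0562. The alpha V partner ITGB3 had 17 and 33 counts against 17 and 22. The hemidesmosome chain ITGB4 had 14 and 7 against 14 and 18, with a tie at 14 (1.19 CPM in both libraries), and did not pass (adjusted p = 0.216).

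Levels of different genes were compared as RPKM, the CPM divided by the length of the gene's canonical transcript in kilobases. Among alpha subunits in control cells, ITGA5 was highest at 26.7 ± 0.133 RPKM (SD, n = 2), followed by ITGAV at 16.9 ± 0.379 and ITGA4 at 16.8 ± 0.119, which did not differ beyond their spread at this length. With all annotated exons as the length, ITGA4 stood above ITGAV at 10.7 ± 0.0756 against 6.14 ± 0.138 RPKM in control cells. ITGA3 and ITGAE were level at 3.85 ± 0.0479 and 3.84 ± 0.458 RPKM, and ITGA6 had 2.32 ± 0.31. In RUNX3 KO cells ITGA4 led at 22.1 ± 0.0451 RPKM and ITGA5 followed at 20.8 ± 0.134, ahead of ITGAV at 16.1 ± 0.404. ITGA3 had 6.64 ± 0.144 and ITGA6 had 5.8 ± 0.0878 RPKM there, both above ITGAE at 3.75 ± 0.47. With all annotated exons the order of the pair turned, with ITGA6 at 5.05 ± 0.0764 and ITGA3 at 3.31 ± 0.072 RPKM in RUNX3 KO cells, and 2.02 ± 0.27 and 1.92 ± 0.0239, within their spread, in control. ITGB1 stood at 94.2 ± 1.91 RPKM in control and 92.1 ± 2.3 in RUNX3 KO cells, well above ITGB5 at 12.3 ± 0.239 and 9.79 ± 0.648.

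**Figure D2:**
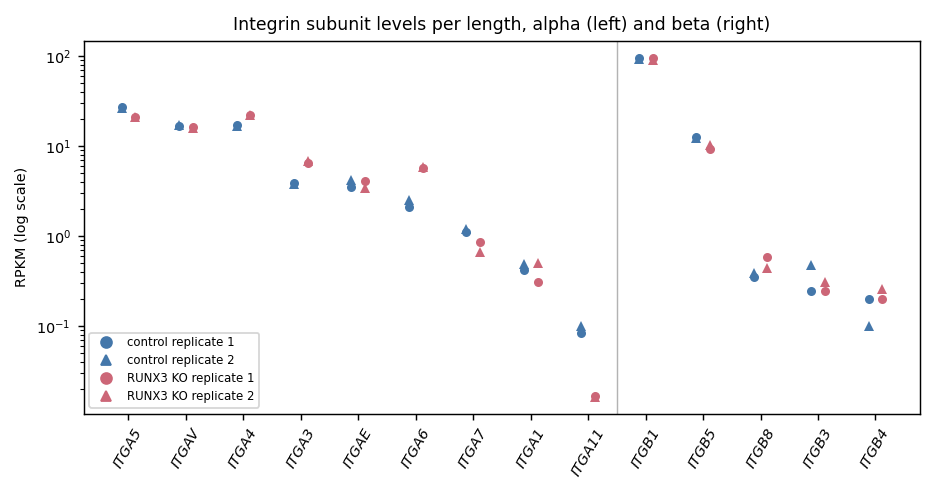
RPKM on a log axis for the 9 tested alpha and 5 tested beta subunits, ordered within each class by the control mean, with a point per library (circles replicate 1, triangles replicate 2, blue control, red RUNX3 KO). ITGB1 lies above every alpha subunit in all 4 libraries, and ITGA6, ITGA3 and ITGA4 are higher in RUNX3 KO libraries.

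Summed over the 12 alpha subunits, the RPKM of the alpha pool was 71.6 and 72.8 in control and 76.8 and 76.2 in RUNX3 KO libraries, and its makeup shifted. The laminin-binding chains took 9.9 and 10.4% of the pool in control and 17.1 and 17.4% in RUNX3 KO libraries. ITGA5 and ITGAV together took 60.3 ± 0.414% in control and 48.3 ± 0.0784% in RUNX3 KO cells (SD, n = 2). ITGA4, ITGA9 and ITGAE, mostly ITGA4, took 28.5 and 28.7% in control and 34.0 and 33.5% in RUNX3 KO libraries. Each of these shares separated the groups without overlap, by more than the difference between replicates, but the exact two-sided permutation test of 2 against 2 libraries cannot go below p = 0.333, which was its value for each. With the summed length of all annotated exons in place of the canonical length, the laminin-binding share rose from 11.3 to 20.2% of the pool and that of ITGA5 and ITGAV went from 54.6 to 41.4%. ITGB1 made up 87.7 ± 0.119% of the beta pool in control and 89.5 ± 0.784% in RUNX3 KO cells (SD, n = 2, exact permutation p = 0.333), or 72.8 and 76.1% with all annotated exons as the length.

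**Figure D3:**
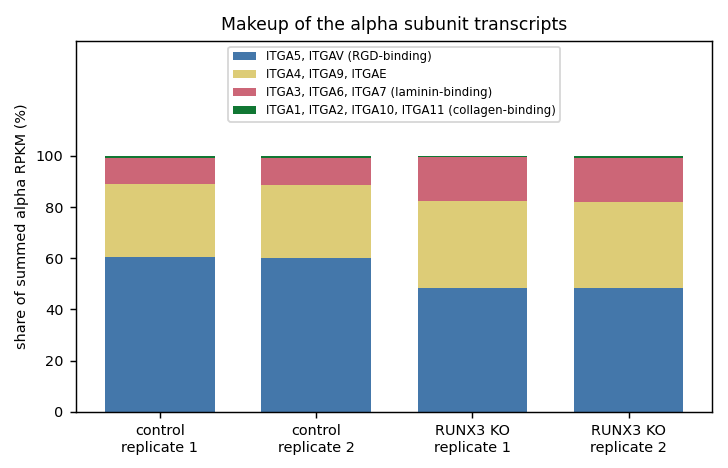
Stacked bars give the share of the summed alpha subunit RPKM, in percent, in each of the 4 libraries, with the alpha chains grouped by ligand. The laminin-binding block is wider and the block of ITGA5 and ITGAV narrower in both RUNX3 KO libraries.

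Both genes with an integrin symbol that are no subunit fell. ITGBL1 encodes a secreted protein with repeats like those of integrin beta chains and had 13 and 22 counts in control and 2 and 0 in RUNX3 KO cells. The ratio of control to RUNX3 KO was 17.7 with a 95% counting interval of 4.54 to 152, and edgeR's quasi-likelihood test gave an adjusted p of 2.52e-07. It did not pass without RUNX3 KO replicate 2, where its log2 fold change was -3.05, beside -3.98 on all 4 libraries. Without RUNX3 KO replicate 1 the value was -7.15, the remaining RUNX3 KO library having 0 counts. ITGBL1 too entered the test through the control libraries alone. FGF14, whose exons overlap 70.5% of its exon length on the other strand, had 0 counts in all 4 libraries. ITGB1BP1, also called ICAP-1, binds the beta 1 tail and restrains its activation. It had 796 and 811 counts in control and 700 and 742 in RUNX3 KO cells (log2 fold change -0.17, SE 0.0555, adjusted p = 0.00781). That call was lost without control replicate 2 (adjusted p = 0.0509), RUNX3 KO replicate 1 (0.129) or RUNX3 KO replicate 2 (0.0739). ASAP2 overlaps 33.2% of the exon length of ITGB1BP1 on the other strand and differed by -0.55 on the log2 scale, and since the strand setting of the counting was not given, reads of the 2 genes cannot be told apart there.

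Among integrin subunits outside the 40 genes, 1 of 9 had enough counts. ITGB7, the other partner of ITGA4 and the partner of ITGAE, had 29 and 44 counts in control and 10 and 8 in RUNX3 KO cells (log2 fold change -2.02, SE 0.337, adjusted p = 2.99e-07, edgeR's quasi-likelihood test). It did not pass without RUNX3 KO replicate 1 (log2 fold change -2.20) or replicate 2 (-1.85). ZNF740 overlaps 42.3% of its exon length on the other strand and differed by 0.19. Like TNS1 it entered the test through the control libraries alone, so this value is a description. ITGB2, the beta chain of leukocytes, had 11 and 7 counts in control and 1 and 0 in RUNX3 KO cells and was not tested.

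Of the proteins that bind the beta tail and activate integrins, kindlin-1, kindlin-2 and talin-2 fell. FERMT2, which encodes kindlin-2, had 1734 and 1764 counts in control and 1214 and 1257 in RUNX3 KO cells (log2 fold change -0.51, SE 0.0413, adjusted p = 1.52e-19, edgeR's quasi-likelihood test). Its 40 neighbours on chromosome 14 had a median of -0.22 and 37 of them were lower. With that median subtracted the difference was -0.29 (adjusted p = 3.93e-09). FERMT1, kindlin-1 of epithelia, had 797 and 729 counts against 653 and 661 (log2 fold change -0.23, adjusted p = 5.7e-04). Its adjusted p was 0.053 without control replicate 1, 0.123 without RUNX3 KO replicate 1 and 0.14 without RUNX3 KO replicate 2. FERMT3, for kindlin-3 of blood cells, is outside the 40 genes, had 26 and 24 counts against 17 and 17 and did not pass (adjusted p = 0.127). Kindlin-2 made up 76.4 ± 1.36% of the summed RPKM of kindlin-1 and kindlin-2 in control and 72.6 ± 0.318% in RUNX3 KO cells (SD, n = 2, exact permutation p = 0.333).

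Talin-1, the main activator of integrins, did not pass the test. TLN1 had 4412 and 4080 counts in control and 4081 and 4140 in RUNX3 KO cells, which overlap, with a log2 fold change of -0.06 and an adjusted p of 0.0864. With library size alone as the scaling its adjusted p was 0.0209, and with upper-quartile scaling 0.0222, with 10 counts required in every library 0.0489 and without control replicate 2 0.00128, the direction being the same. TLN2, its paralogue, had 1081 and 968 counts against 863 and 894 (log2 fold change -0.24, SE 0.0515, adjusted p = 6.88e-05, edgeR's quasi-likelihood test). TLN2 did not pass without RUNX3 KO replicate 1 (log2 fold change -0.22) or replicate 2 (-0.25). It moved against its surroundings, since its 40 neighbours on chromosome 15 had a median of 0.29, and relative to them it was lower by a log2 difference of -0.52 (adjusted p = 5.14e-15).

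In the complex of ILK, PINCH and parvin, PINCH-2 and alpha-parvin rose, the latter near the threshold, while ILK and PINCH-1 did not pass the test. ILK, the pseudokinase at its centre, had 867 and 934 counts in control and 935 and 942 in RUNX3 KO cells (log2 fold change 0.05, 95% interval -0.06 to 0.15). TAF10, which overlaps 68.1% of its exon length on the other strand, had between 584 and 669 counts. LIMS1, which encodes PINCH-1, had 498 and 495 counts against 511 and 519 (0.04, 95% interval -0.09 to 0.17), and its value is uncertain because near-identical gene copies can take its reads. LIMS2, which encodes PINCH-2, had 37 and 43 counts in control and 130 and 125 in RUNX3 KO cells. Both RUNX3 KO libraries were far above both control libraries, and its log2 fold change of 1.66 (SE 0.173, adjusted p = 5.34e-14, edgeR's quasi-likelihood test) was the largest rise among the 36 tested genes.

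LIMS2 lies on chromosome 2 from 128395956 to 128439360 of GRCh37, where its 40 neighbours had a median log2 fold change of 0.02. Its share of the summed RPKM of LIMS1 and LIMS2 was 12.8 ± 1.23% in control and 31.1 ± 0.83% in RUNX3 KO cells (SD, n = 2, exact permutation p = 0.333), so that PINCH-1 remained the more abundant. With all annotated exons as the length, those shares were 7.72 and 20.5%. PARVA, which encodes alpha-parvin, had 672 and 606 counts against 681 and 741 (log2 fold change 0.14, edgeR's quasi-likelihood test, adjusted p = 0.045). Its adjusted p was 0.493 without control replicate 2, 0.187 without RUNX3 KO replicate 1 and 0.494 without RUNX3 KO replicate 2, and it was 0.0907 with library size alone. PARVB, for beta-parvin, had 3 and 10 counts against 4 and 5 and was not tested. RSU1, a gene outside the 40 whose protein binds PINCH-1, had 2222 and 2217 counts in control and 1343 and 1248 in RUNX3 KO cells (log2 fold change -0.79, SE 0.04, adjusted p = 8.81e-32) beside a neighbourhood median of -0.33.

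The tensins bind beta tails and actin in the long fibrillar adhesions that line up with fibronectin. TNS1 had 46 and 63 counts in control and 7 and 5 in RUNX3 KO cells (log2 fold change -3.17, SE 0.336, adjusted p = 9.77e-14, edgeR's quasi-likelihood test). It entered the test through the control libraries alone, where it is high, so its p is no independent support. The counts of the 2 groups lay far apart, with a ratio of control to RUNX3 KO of 9.17 and a 95% counting interval of 5.04 to 18.3. The gene lies on chromosome 2 from 218664311 to 218898705 of GRCh37, where its 40 neighbours had a median of 0.015. Its relative TNS3 had 1738 and 1587 counts against 1705 and 1778, which overlap, and a log2 fold change of 0.05 (95% interval -0.03 to 0.13). By RPKM, TNS1 made up 2.37 ± 0.656% of the 2 tensins in control and 0.254 ± 0.0669% in RUNX3 KO cells (SD, n = 2, exact permutation p = 0.333), so the total of the pair was nearly all TNS3 in either condition.

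**Figure D4:**
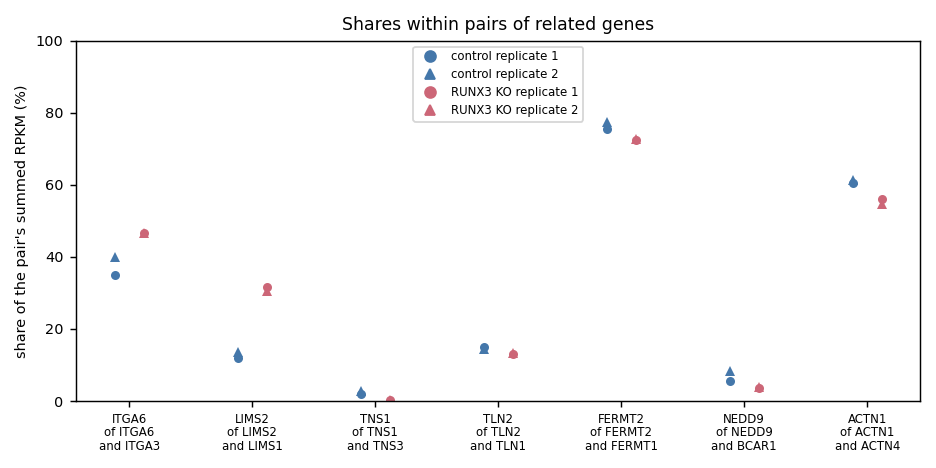
For 7 pairs of related genes, the share of the first in the summed RPKM of both, in percent, with a point per library (circles replicate 1, triangles replicate 2, blue control, red RUNX3 KO). The share of LIMS2 is 11.9 and 13.7% in control and 31.7 and 30.5% in RUNX3 KO libraries, and the groups do not overlap for the 7 pairs drawn. PARVB and PARVA, whose groups overlap, and TGFB1I1 and PXN, whose groups do not, are not drawn. For each pair drawn the exact permutation p is 0.333.

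Paxillin, the scaffold that recruits FAK to new adhesions, had 650 and 636 counts (PXN) in control and 624 and 652 in RUNX3 KO cells (log2 fold change -0.02, 95% interval -0.14 to 0.1). Its relative TGFB1I1, or Hic-5, had 136 and 111 counts against 142 and 139 and did not pass either (adjusted p = 0.277). FAK itself rose slightly, with 881 and 885 counts of PTK2 in control and 1035 and 1018 in RUNX3 KO cells (log2 fold change 0.20, SE 0.05, adjusted p = 3.63e-04, edgeR's quasi-likelihood test), and without RUNX3 KO replicate 1 its adjusted p was 0.0641. BCAR1, which encodes the stretch-sensitive FAK and SRC substrate p130Cas, had 591 and 555 counts in control and 772 and 798 in RUNX3 KO cells (log2 fold change 0.44, SE 0.0592, adjusted p = 6.25e-10). Both genes had RUNX3 KO libraries above both control libraries. The CAS family relative NEDD9 had 38 and 55 counts against 31 and 36, with an adjusted p of 0.0781. SRC had 71 and 67 counts against 69 and 69 (adjusted p = 0.959), so that of the kinases and their substrates PTK2 and BCAR1 rose and the other 2 did not pass the test.

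The links to actin moved in both directions and by little. VCL, for vinculin, had 6777 and 6839 counts in control and 6326 and 6446 in RUNX3 KO cells (log2 fold change -0.11, edgeR's quasi-likelihood test, adjusted p = 2.5e-04). It did not pass without RUNX3 KO replicate 1 (log2 fold change -0.10) or replicate 2 (-0.11), though its fold change hardly moved. ACTN1, a cross-linker of stress fibres, had 4519 and 4424 counts against 4002 and 4007 (log2 fold change -0.17, adjusted p = 2.35e-07). Its 40 neighbours on chromosome 14 had a median of -0.21, and relative to them ACTN1 differed by 0.04 (adjusted p = 0.27). ACTN4, the other non-muscle alpha-actinin, had 3941 and 3757 counts against 4215 and 4465 (log2 fold change 0.16, adjusted p = 2.66e-06). It did not pass without RUNX3 KO replicate 1 (log2 fold change 0.19) or replicate 2 (0.13). ZYX, for zyxin, which moves to stress fibres under tension, had 831 and 827 counts against 1034 and 1025 (log2 fold change 0.30, adjusted p = 4.14e-07). The 2 alpha-actinins thus moved apart, and ACTN1 went from 60.9 ± 0.447% of their summed RPKM in control to 55.3 ± 0.985% in RUNX3 KO cells (SD, n = 2, exact permutation p = 0.333). With all annotated exons as the length, ACTN1 was the less abundant at 33.2 and 28.3%, so the order of the 2 depends on the length used.

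The 36 genes differed in how their genomic neighbours moved. The 6 largest neighbourhood medians were 0.29 for TLN2, 0.28 for ITGA11, -0.22 for FERMT2, -0.21 for ACTN1, -0.19 for ITGA7 and -0.17 for ITGA5. TLN2 and ITGA11 moved against their neighbours and the other 4 in the same direction as them. Relative to their neighbours, ITGAV and TLN1 were lower, by log2 differences of -0.18 (adjusted p = 2.32e-04) and -0.14 (adjusted p = 3.36e-05). TNS3 was higher by 0.13 (adjusted p = 0.00464, edgeR). None of these 3 passed in the unsubtracted test on all 4 libraries. The median entered as a fixed number, so these p-values leave out the spread among the neighbours and do not show a departure from it. TNS3 also passed without control replicate 1 (adjusted p = 0.0303), and TLN1 under some other settings given above. For ITGA6, ITGA3, LIMS2 and TNS1 the median lay between -0.09 and 0.02, small beside their own changes. The part of copy number or of other regional differences in these values was not tested.

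**Figure D5:**
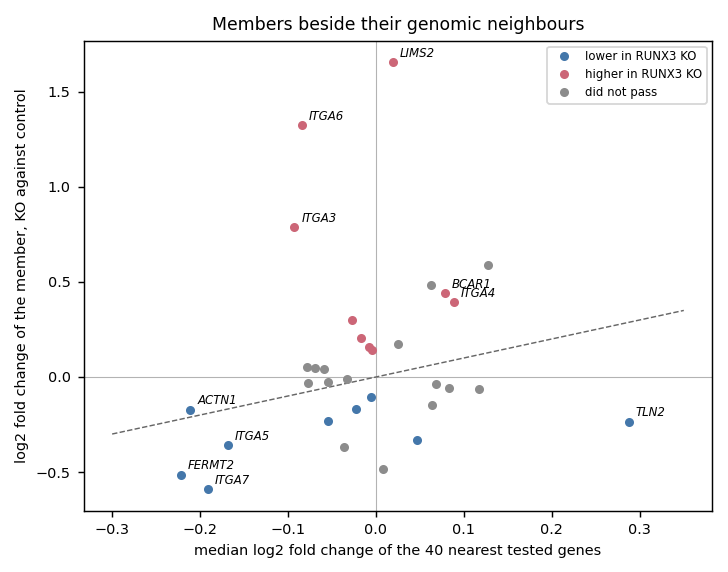
Each point is an adhesion gene, with its own log2 fold change on the vertical axis and the median log2 fold change of its 40 nearest tested genes on the horizontal axis (blue lower, red higher in RUNX3 KO, grey did not pass), and the dashed line marks equal values. TNS1, ITGA11 and ITGBL1 lie below the range drawn. LIMS2, ITGA6 and ITGA3 stand far above the line and ACTN1 lies next to it.

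Around these 40 genes, a wider list of 102 adhesion genes was read from the same fit, of which 100 were in the tables and 72 were tested. In RUNX3 KO cells 26 of the 72 (36.1%) were lower and 18 (25%) higher, beside 24.4% and 24.5% of all tested genes. The median log2 fold change of the 72 was -0.03. Without RUNX3 KO replicate 1, 17 were lower and 9 higher, and without RUNX3 KO replicate 2, 16 were lower and 7 higher. Of 54 adaptors and kinases tested, 17 (31.5%) were lower and 11 (20.4%) higher, and of 17 ligands 8 (47.1%) were lower and 7 (41.2%) higher. FYN, a SRC family kinase that acts downstream of integrins, had 109 and 94 counts in control and 7 and 19 in RUNX3 KO cells (log2 fold change -2.97, SE 0.247, adjusted p = 1.11e-18, edgeR's quasi-likelihood test). It too entered the test through the control libraries, as 1 RUNX3 KO library lay above the filter's limit. Its log2 fold change was -2.43 without RUNX3 KO replicate 1 and -3.83 without RUNX3 KO replicate 2. VAV3 had 515 and 516 counts against 1402 and 1462 (log2 fold change 1.46, adjusted p = 2.04e-42). CIB1, which binds integrin alpha tails, rose by 0.83 on the log2 scale beside a neighbourhood median of 0.66.

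Several ligands of these receptors changed by more than 2-fold. TNC, for tenascin-C, a ligand of alpha 9 and alpha V integrins, had 164 and 183 counts in control and 0 and 0 in RUNX3 KO cells, at least 58.4-fold lower against a floor of 3 counts per library. NID1, for nidogen-1, which joins laminin to collagen IV, had 113 and 122 counts against 2 and 2, a ratio of control to RUNX3 KO of 59.3 with a 95% counting interval of 22.9 to 219. Both TNC and NID1 were tested through the control libraries alone. FN1, for fibronectin, the ligand of ITGA5, had 115 and 95 counts against 15 and 11 (log2 fold change -3.01, adjusted p = 9.22e-20, edgeR's quasi-likelihood test). THBS1, for thrombospondin-1, fell by 1.40 on the log2 scale, and VCAM1, the counter-receptor of ITGA4, had 273 and 279 counts against 172 and 161 and fell by 0.74. The fibrillins FBN2 and FBN1, which carry RGD motifs, rose by 1.53 and 1.16 on the log2 scale, and CTGF, a matrix-bound integrin ligand, rose by 0.80. FBN1 did not pass without RUNX3 KO replicate 2, and its log2 fold change ran from 0.94 to 1.43 with each library left out in turn.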

How the data were processed

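RNA-seq was analysed for 2 control and 2 RUNX3 KO libraries of HGC-27 cells, grouped by the genotype in the labels. The authors deposited raw counts of reads per gene symbol, 1 table per library, without normalization. The submitters' processing notes name bcl2fastq, HISAT2 2.1.0, HTSeq and hg19, and the labels a stranded poly(A) kit, whereas the paper names STAR, featureCounts and GENCODE. The strand setting is not given in the sources used here. Rows for reads without a gene took 25.9 to 28.1% of all counts and were left out.

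The fit used edgeR 4.0.16 under R 4.3.3. After filterByExpr (minimum count 10, minimum total 15), 12967 genes remained. Conditions were compared on TMM-scaled libraries with the quasi-likelihood test, and p-values were adjusted over those genes by Benjamini-Hochberg, with a threshold of 0.05. The 40 genes and all gene lists were chosen with earlier results of these data known. Genes that passed with at least a 1.5-fold change were described by their counts, the others by level and counts. From the wider list, the 5 largest falls and 5 largest rises that averaged 50 counts or more and whose groups did not overlap were named, and partner genes such as ITGB7, ITGB2, RSU1 and VCAM1 were named after their values were seen. Counting intervals are exact (Clopper-Pearson) at 95% and cover counting error only, as does the floor of 3 counts per library. At 11731401 to 12110876 counts per library, genes with few counts are imprecise.

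Gene positions and lengths came from GENCODE v44 on GRCh37, in which 21659 of 25559 symbols matched. RPKM used the canonical transcript, a length chosen after the annotation was seen in place of all annotated exons, which was kept as an alternative. Neighbourhoods were the 20 nearest tested genes on each side. Their median was subtracted as a fixed number, and only the gene's own standard error entered the p-value. On simulated counts for this comparison (12805 genes), 180 of 197 changed genes (91.4%) were recovered with 9 false calls. Alternatives were DESeq2's size factors, upper-quartile scaling, library size alone, no filter, 10 counts in every library, DESeq2 1.42.0, limma-voom (limma 3.58.1), an exact test with an assumed coefficient of variation of 0.2, a replicate block, each library left out in turn, and subtraction of the neighbourhood median.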

Additional observations from a re-analysis of the deposited data

How the results depend on the processing

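Of the 36 tested adhesion genes, 12 were lower and 9 higher in RUNX3 KO cells. With an assumed coefficient of variation of 0.2, 3 were lower and 2 higher, and in the wider list of adhesion genes 9 were lower and 3 higher. A filter of 10 counts in every library left 0 genes at least 2-fold lower (by edgeR's quasi-likelihood test), since ITGA11, ITGBL1 and TNS1 did not pass that filter and were not tested, and it left 10 lower in all. With each library left out in turn, 5 to 12 were lower, 6 to 10 higher and 1 to 3 at least 2-fold lower, and 2 were at least 2-fold higher each time, while in the wider list 16 to 25 were lower and 7 to 17 higher. DESeq2 gave 8 lower and 8 higher, and ITGA7, ITGA11, ITGB1BP1, FERMT1 and PARVA did not pass there. In the wider list DESeq2 gave 21 lower and 13 higher. Subtraction of the neighbourhood median gave 26 lower and 12 higher in that list. Scaling by DESeq2's size factors and limma-voom changed no call, and upper-quartile scaling or library size alone gave 13 lower and 8 higher. ACTN1 changed direction to 0.0389 (log2) when its neighbourhood median was subtracted, which follows from that median being -0.21. Without RUNX3 KO replicate 1 or 2, VCL lost its call at a log2 fold change of -0.10 or -0.11, beside -0.11 on all 4 libraries. For the other lost calls the cause was not tested. Same-numbered libraries shared only a number (correlation of their deviations 0.0257), and a replicate block left 12 lower and 9 higher, 3 and 2 of them at least 2-fold, and 26 lower and 18 higher in the wider list, with no call changed among the 36. The depth limits what can be said of genes with few counts, such as ITGA2, ITGA9, ITGA10 and PARVB, for which a difference was not detectable.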
